A study of Mus musculus with 12 samples.

Results

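The single-exon intergenic transcripts of the mouse testis were described here: transcripts that the authors' assembly placed in class u, with no overlap with a reference gene, that were longer than 200 nt and held exactly 1 exon. Of 71967 assembled transcripts, 2053 met these criteria, and they made up 27.0% of the 7594 transcripts of class u; the other transcripts of that class comprised 5540 with several exons and 1 single-exon transcript of 200 nt or less. The RNA came from whole testes of C57BL/6 mice, an inbred laboratory strain, labelled wild type and given no treatment in the labels. The 4 groups were mice at 3, 6, 12 and 18 months of age (3M, 6M, 12M and 18M), with 3 mice and 3 libraries at each age. Each of the 12 libraries held between 50924104 and 71803379 estimated reads. Since whole testes were used, fewer cells of a type and less RNA per cell cannot be told apart.

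The testis is known for transcribing far more of the genome than most organs, including intergenic sequence, pseudogenes and young gene copies, above all in meiotic and post-meiotic germ cells. A transcript with 1 exon can come from a retrocopy, which is the reverse-transcribed and reinserted copy of a spliced mRNA and carries no introns, from an unspliced noncoding RNA, from an extension of a neighboring gene, or from genomic DNA or unspliced RNA in the library. Such transcripts are commonly removed from catalogs of long noncoding RNAs (lncRNAs), and the study removed them from its own lncRNA lists.

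The sequences below were read from GENCODE vM21 and RefSeq records on GRCm38 (mm10), which cover at least 1 base of 947 members and the whole of 146. The first set shows members that carry copies of coding mRNAs, with up to 300 bases from the middle of the known stretch. Each is printed in the direction of the mRNA, and capitals mark bases that differ from the closest coding transcript or are absent from it.
Gpx4-ps2 (MSTRG.1539.1, chr10:45875541-45875840 on the plus strand, against Gpx4): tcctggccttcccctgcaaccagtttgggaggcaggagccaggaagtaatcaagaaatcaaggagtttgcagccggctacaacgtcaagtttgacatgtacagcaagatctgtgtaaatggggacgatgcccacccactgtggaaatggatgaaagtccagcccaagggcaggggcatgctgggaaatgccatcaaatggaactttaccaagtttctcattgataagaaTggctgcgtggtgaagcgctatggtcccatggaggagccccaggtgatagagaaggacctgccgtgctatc
Dynlt1-ps1 (MSTRG.17537.1, chr6:135349408-135349707 on the minus strand, against Dynlt1c): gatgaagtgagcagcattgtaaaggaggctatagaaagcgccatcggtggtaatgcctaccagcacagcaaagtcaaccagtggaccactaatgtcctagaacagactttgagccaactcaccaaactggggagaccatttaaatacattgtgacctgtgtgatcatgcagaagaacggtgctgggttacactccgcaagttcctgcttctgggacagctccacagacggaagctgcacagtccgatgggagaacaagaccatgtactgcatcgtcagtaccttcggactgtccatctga
Gm15500 (MSTRG.18872.1, chr7:114705563-114705862 on the minus strand, against Rpl5): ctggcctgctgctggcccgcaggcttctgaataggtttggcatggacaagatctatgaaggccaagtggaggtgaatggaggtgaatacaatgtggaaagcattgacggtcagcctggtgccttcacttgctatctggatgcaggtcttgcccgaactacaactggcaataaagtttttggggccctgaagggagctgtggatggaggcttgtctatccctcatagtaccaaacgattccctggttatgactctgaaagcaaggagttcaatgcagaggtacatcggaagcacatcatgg
Gm4821 (MSTRG.6637.1, chr14:78461519-78461818 on the plus strand, against Rps2): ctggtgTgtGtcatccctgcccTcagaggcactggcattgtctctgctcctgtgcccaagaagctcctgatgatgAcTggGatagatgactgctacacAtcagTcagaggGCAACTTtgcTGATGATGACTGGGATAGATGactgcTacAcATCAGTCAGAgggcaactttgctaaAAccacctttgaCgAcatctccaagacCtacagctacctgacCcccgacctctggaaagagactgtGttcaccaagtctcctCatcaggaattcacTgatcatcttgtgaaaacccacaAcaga
Mdm4-ps (MSTRG.22243.1, chrX:128262289-128262588 on the plus strand, against Mdm4): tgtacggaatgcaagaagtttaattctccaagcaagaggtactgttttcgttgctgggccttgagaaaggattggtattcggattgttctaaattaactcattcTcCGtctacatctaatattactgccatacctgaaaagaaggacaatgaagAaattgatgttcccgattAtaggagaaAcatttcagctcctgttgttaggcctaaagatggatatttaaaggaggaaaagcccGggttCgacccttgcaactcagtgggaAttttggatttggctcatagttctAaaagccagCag
Gm9791 (MSTRG.12726.1, chr3:34005017-34005189 on the minus strand, against Carhsp1): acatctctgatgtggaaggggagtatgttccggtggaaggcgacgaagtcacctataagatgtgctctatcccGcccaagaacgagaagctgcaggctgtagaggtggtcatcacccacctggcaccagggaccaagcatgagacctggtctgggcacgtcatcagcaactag
In these windows the copies of Dynlt1c and Rpl5 had 0 differences and that of Gpx4 had 1, so that a read from the copy and a read from the coding mRNA hold the same letters over most positions. The copies of Mdm4 and Rps2 differed from the coding transcript at 11 and 58 positions. Mdm4-ps and Gm9791 were chosen after their values were seen.

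The second set shows the members on which the comparisons between ages and the families of shared sequence turn, with capitals for bases that differ from the closest coding transcript where 1 was found.
Gm20763 (MSTRG.5787.1, chr13:120194514-120194813 on the plus strand, against Kifc1 over 271 bases): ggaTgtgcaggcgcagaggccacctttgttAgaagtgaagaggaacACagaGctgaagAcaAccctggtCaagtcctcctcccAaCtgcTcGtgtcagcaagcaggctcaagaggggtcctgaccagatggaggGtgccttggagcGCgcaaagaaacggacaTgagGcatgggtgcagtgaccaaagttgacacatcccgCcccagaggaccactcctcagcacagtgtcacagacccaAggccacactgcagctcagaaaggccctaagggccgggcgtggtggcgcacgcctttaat
Gm21118 (MSTRG.22583.1, chrY:70271704-70272003 on the minus strand, against Gm20806): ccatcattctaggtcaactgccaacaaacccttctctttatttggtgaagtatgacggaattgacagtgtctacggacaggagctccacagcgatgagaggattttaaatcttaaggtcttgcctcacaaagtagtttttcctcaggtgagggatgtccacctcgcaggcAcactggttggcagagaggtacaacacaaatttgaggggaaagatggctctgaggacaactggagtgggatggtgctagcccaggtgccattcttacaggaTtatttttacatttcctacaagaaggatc
Gm4942 (MSTRG.7106.1, chr15:63491196-63491495 on the minus strand, against 4930444G20Rik): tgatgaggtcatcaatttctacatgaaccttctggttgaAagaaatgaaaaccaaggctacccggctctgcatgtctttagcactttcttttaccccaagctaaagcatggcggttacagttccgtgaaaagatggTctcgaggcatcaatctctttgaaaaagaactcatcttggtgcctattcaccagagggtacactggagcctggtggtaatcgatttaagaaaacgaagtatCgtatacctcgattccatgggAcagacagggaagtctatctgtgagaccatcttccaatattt
A530020G20Rik (MSTRG.13412.1, chr3:121534682-121534981 on the plus strand, no coding match): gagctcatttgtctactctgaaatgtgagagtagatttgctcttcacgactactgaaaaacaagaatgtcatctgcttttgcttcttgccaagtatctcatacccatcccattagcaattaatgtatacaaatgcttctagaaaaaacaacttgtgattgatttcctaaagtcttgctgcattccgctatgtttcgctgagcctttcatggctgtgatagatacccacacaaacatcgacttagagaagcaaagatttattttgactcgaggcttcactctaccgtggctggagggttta
Gm27466 (inside MSTRG.22536.1, chrY:40684181-40684290 on the minus strand, against Gm14226): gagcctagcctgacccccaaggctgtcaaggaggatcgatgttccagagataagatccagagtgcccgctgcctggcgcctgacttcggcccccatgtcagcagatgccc
The last of these is an annotated small RNA gene of 110 bases within a member of 5492 bases on the Y chromosome. The highest member of all, MSTRG.12589.1 on chromosome 3, is named only.

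The members were short and scattered. Their median length was 1128 nt, with quartiles at 555 and 2504 nt and a range of 202 to 50841 nt, and 53 were longer than 10 kb. No locus of the assembly held more than 1 member, 2053 loci in all, and none carried a gene symbol. By chromosome they made up between 2.08% and 4.12% of the assembled transcripts of each autosome and the X, and 5.84% on the Y chromosome, with 22 members. In the 12 assemblies 1255 members were given a strand, 738 none, and 60 a strand in some assemblies only, although this kit leaves the strand unknown.

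"Intergenic" referred to the reference annotation of the assembly. Against GENCODE vM21, which is a larger catalog on the same build, 947 members (46.1%) overlapped an annotated gene by 1 base or more, 808 touched an exon, and 710 were covered over 50% or more of their length. The largest of these classes was the processed pseudogene, the annotation term for a retrocopy, with 417 members. A further 208 overlapped an lncRNA or a gene yet to be experimentally checked (TEC), 132 an exon of a protein-coding gene, 139 an intron alone, 37 another kind of pseudogene and 13 a small or structured RNA, and 1 spanned the mitochondrial genome. No GENCODE gene was found at the remaining 1106.

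In distance to the reference genes, 572 of 2052 members (27.9%) lay within 5 kb, 441 upstream and 131 downstream of the nearest gene, where a separate class of the assembly already holds transcripts just downstream of genes. The share was 21.8% for the multi-exon intergenic transcripts, and the median distance was 18197 bases for the members and 27395 bases for those with several exons. An example is MSTRG.10511.1 at chr19:30027768-30030435, 78 bases upstream of Uhrf2, a gene for a ubiquitin ligase that binds modified DNA. MSTRG.13412.1 lay 544 bases upstream of Slc44a3, which encodes a choline transporter-like protein. At the other end, 372 members were more than 100 kb from any reference gene, among them the highest member, 284088 bases from Pex2, a peroxisome assembly gene.

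The level of the members was low and narrow. FPKM, a fragment count scaled by transcript length and by sequencing depth, was used as deposited. The median of the mean FPKM over 12 libraries was 1.09, with quartiles at 0.820 and 1.65. From 0.5 to under 2 lay 1429 members (69.6%), against 59.1% of the multi-exon intergenic transcripts and 20.3% of RefSeq mRNAs. Members were listed because they were assembled from these same reads, and RefSeq mRNAs were listed from annotation. The mRNA shares are thus not on the same footing, and the part of this in the difference was not tested. The median per library was 1.10 ± 0.0362 in the 3M mice, 1.13 ± 0.0207 in the 6M mice, 1.16 ± 0.0868 in the 12M mice and 1.13 ± 0.0368 in the 18M mice (SD, n = 3). These differences between ages were within the spread of the 12M libraries. Of the members with reads in all 12 libraries, 23.4% were highest in 12M-3, the library of mouse 3 at 12M. This was so for 13.2% of all such transcripts. A mean FPKM of 10 was reached by 63 members (3.07%), against 1.48% of multi-exon intergenic transcripts and 12.2% of mRNAs. Reads were present in all 12 libraries for 1545 members, and 24 members had no read in any.

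Levels differed with the annotation at the site. The median FPKM was 1.37 in the processed pseudogenes and 1.05 where GENCODE has no gene, and an FPKM of 5 or more was reached by 16.8% of the former and 3.53% of the latter. The 13 members at small or structured RNAs had a median of 2.95. One of them covers Rn7sk, the 7SK RNA that restrains transcription elongation.

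**Figure D1:**
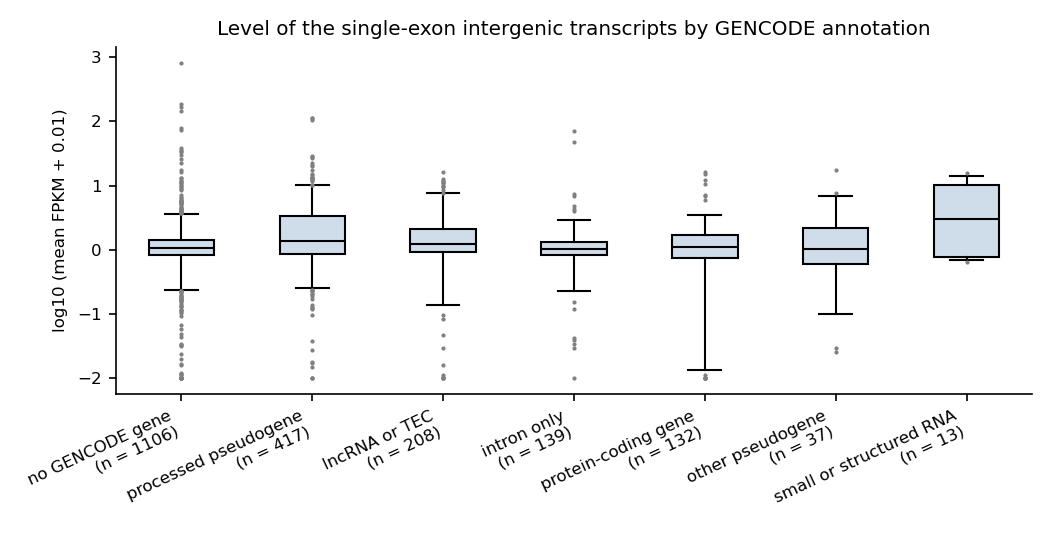
Mean FPKM of each member over the 12 libraries, as log10(FPKM + 0.01), by what GENCODE vM21 annotates at the site, where boxes show quartiles and medians, whiskers the 5th to 95th percentiles and points the members beyond them. The boxes without a GENCODE gene are narrow around a median of 1.05 FPKM, and the processed pseudogenes reach higher, with an upper quartile of 3.31 FPKM.

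The highest member stood far above the others. MSTRG.12589.1, a stretch of 490 bases at chr3:5860336-5860825 with no GENCODE gene and no strand, had an FPKM of 687, 680 and 714 at 3M, 781, 669 and 726 at 6M, 830, 888 and 974 at 12M, and 1446, 708 and 732 at 18M. The 12M libraries were all above those of 3M and 6M, and 18M-1, the library of mouse 1 at 18M, was highest, while the other 18M libraries lay among the younger ones. The fold change from 3M to 18M was 0.46 ± 0.30 on the log2 scale (SE, adjusted p = 0.937, edgeR quasi-likelihood test).

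Other members shared this profile. Of the 63 members that reached a mean FPKM of 10, 7 including MSTRG.12589.1 had a Pearson r of 0.9 or more with it on log2 FPKM across the 12 libraries, which is given as a description. They lay on 6 chromosomes, were 213 to 962 nt long, and had no GENCODE exon: 5 were outside any GENCODE gene and 2 inside introns. Next to the highest, MSTRG.7863.1 (chr16:17222304-17222528) had r = 0.984, MSTRG.16549.1 (chr6:3200716-3201671) r = 0.969 and MSTRG.19092.1 (chr7:130834434-130834646) r = 0.964. In all 7 the level in 18M-1 was 1.73 to 2.17 times the median of the other 11 libraries. The choice by r largely fixed this ratio, since MSTRG.12589.1 itself was highest in 18M-1. The other 56 members of this level had a median ratio of 0.991, but some had ratios like those of the 7. MSTRG.4928.1, just under the threshold at r = 0.896, had 2.83 and overlaps an exon of the small RNA gene Gm24187. MSTRG.19397.1 had 1.81 and MSTRG.7030.1 had 1.80.

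The ribosomal RNA precursor moved with them. Rn45s, the 45S pre-rRNA, whose products the depletion kit is meant to remove, had an FPKM of 161, 174 and 164 at 3M, 186, 167 and 190 at 6M, 172, 204 and 237 at 12M, and 339, 167 and 177 at 18M. In 18M-1 it was 1.95 times the median of the other libraries, and its r with the 7 members ran from 0.869 to 0.997, highest for MSTRG.16549.1. The members' bases were not compared with ribosomal RNA here, and the part of leftover ribosomal RNA in their levels was not tested. Without the 7 members the share of summed FPKM held by the members lay between 0.956% and 1.09% in the 12 libraries, against 1.24% to 1.60% with them.

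**Figure D2:**
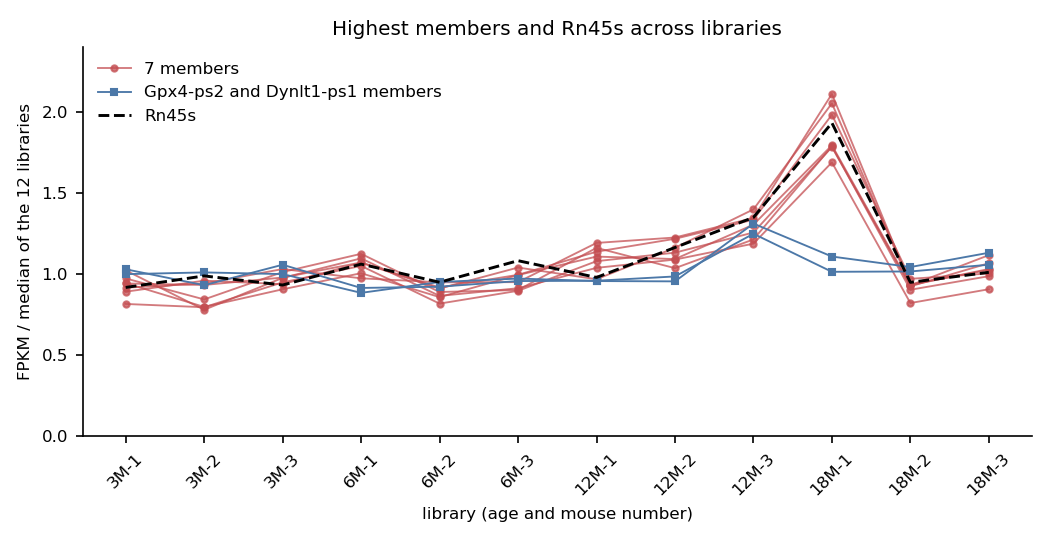
FPKM in each library, divided by the median of the 12 libraries, for the 7 members whose profile was like that of MSTRG.12589.1 (red), the Gpx4-ps2 and Dynlt1-ps1 members (blue) and Rn45s (dashed). The red and dashed lines peak in 18M-1, at about the same ratio, where the blue lines do not.

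The second highest member was 1 of these 7. MSTRG.9968.1 (chr18:68691733-68692535), with no GENCODE gene, had an FPKM of 168, 146 and 175 at 3M, 195, 154 and 156 at 6M, 201, 179 and 210 at 12M, and 309, 156 and 171 at 18M. It too was highest in 18M-1, and the change from 3M to 18M was 0.37 ± 0.29 (log2, SE, adjusted p = 0.952, edgeR).

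A pair on chromosome 8 came next in level. MSTRG.19397.1 and MSTRG.19398.1 cover the same 351 bases, chr8:15519775-15520125, on opposite strands, with mean FPKM values of 166 and 145. At 3M both had an FPKM of 172, 123 and 136 and at 18M of 296, 148 and 163, again highest in 18M-1. MSTRG.19397.1 was at 0 in 6M-3, where its partner had 151, and MSTRG.19398.1 was at 0 in 12M-1 and 12M-2, where its partner had 196 and 207.

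Members with the same start and end often held the same count. In all, 263 members overlapped another, in 132 pairs that were all on opposite strands, and 44 pairs had the same start and end. Of the 528 values that these 44 pairs gave over 12 libraries, 379 were equal within 1 read and above 0, and in 100 one partner was at 0 while the other was not. The switch to 0 occurred in 36 of the 44 pairs. Pairs that overlap in part could differ in every library. MSTRG.2845.1 and MSTRG.2846.1, with means of 319 and 223 reads, were equal within 1 read in 0 libraries. How reads were given to overlapping members was not tested.

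An all-or-none value, 0 in at least 1 library and 100 or more estimated reads in another, was found in 281 of the 1217 members that reached 100 reads in any library. It was found in 134 of 240 members (55.8%) that overlapped another member, in 97 of 275 (35.3%) that overlapped an exon of another assembled transcript, and in 50 of 702 (7.12%) that overlapped neither. It was found in 25.3% of the multi-exon intergenic transcripts that reached 100 reads. Replicate mice were compared by the Pearson correlation of log2(CPM + 1) within an age, where CPM is the read count scaled to library size. It was 0.871 to 0.911 over the 1790 members that overlapped no other member, and 0.587 to 0.745 over the 263 that did. It was 0.751 to 0.783 over the multi-exon intergenic transcripts and 0.946 to 0.951 over RefSeq mRNAs.

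The retrocopies were the largest annotated class and could be set beside the genes they were copied from. A coding transcript was matched at 90% identity or more over 50% of the member by 305 members. Of the 417 members in processed pseudogenes, 232 had such a match to a gene with a level in the table, to 152 different genes, with a median identity of 99.2%. They stood at 218 sites, since members that overlap on opposite strands were each counted. The level of a coding gene was the summed FPKM of its RefSeq mRNAs. Isoforms of the gene that were only assembled here were left out of this sum. The median FPKM was 1.17 in these members and 58.4 in the coding genes, and the member had a median of 2.67% of the level of its gene. Levels of copy and gene were almost unrelated across these 232 members (Spearman's rho 0.07, a description across members that share libraries).

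Ribosomal protein genes were matched by 67 of the 232 members, at 62 sites and from 34 genes, with a median FPKM of 1.26 beside 101 in the coding genes. Rps2, a protein of the small ribosomal subunit, was matched most often, by 12 members at 11 sites between 0.221 and 1.69 FPKM, beside 101 for Rps2. Hmgb1, a chromatin protein, was matched by 6 members, and Eef1a1, a translation elongation factor, and Gapdh, a glycolytic enzyme, by 5 each. The Gapdh copies ranged from 0.289 to 7.25 FPKM, beside 11.4 for Gapdh, and the Eef1a1 copies from 1.08 to 12.3, beside 1052 for Eef1a1.

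How far reads can tell copy from gene was measured on the letters. The estimated counts imply reads of 101 bases, and for each member the share of its 101-base windows found without a mismatch in a coding transcript was taken over the bases known from GENCODE or RefSeq, a median of 84.7% of its length. The median share was 48.9% over the 232 members. It was 50% or more in 115 of them, whose median FPKM was 1.35, above 0% and under 50% in 108, with a median FPKM of 1.07, and 0% in 9, with a median FPKM of 1.42.

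The highest retrocopy was that of Gpx4, the glutathione peroxidase that forms part of the sperm midpiece. MSTRG.1539.1, in Gpx4-ps2 at chr10:45875299-45876084, had an FPKM of 112, 113 and 112 at 3M, 99.0, 106 and 109 at 6M, 107, 107 and 147 at 12M, and 124, 117 and 127 at 18M, with 12M-3 highest. Gpx4 itself had a mean FPKM of 861, the match was 99.7% over 97.7% of the member, and 67.9% of its windows, with all bases known, were found in a coding transcript. The change from 3M to 18M was 0.12 ± 0.06 (log2, SE, adjusted p = 0.920, edgeR).

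Dynlt1-ps1, at chr6:135349159-135349782, is a copy of Dynlt1c, a dynein light chain gene, and held 2 members on opposite strands. MSTRG.17537.1 had a mean FPKM of 113, between 103 and 140 in all libraries, and Dynlt1c had 297. The 242 windows in its known bases, which are 54.8% of its length, were all found in a coding transcript. Its level from 3M to 18M changed by 0.03 ± 0.07 (log2, SE, adjusted p = 0.998, edgeR).

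Members above the RefSeq mRNAs of their gene were the exception, 11 of 232 (4.74%), at 10 sites. Assembled isoforms of these genes were not counted in this comparison. MSTRG.22243.1, in Mdm4-ps on the X chromosome, is 92.4% identical over its full length to Mdm4, which encodes a p53 inhibitor. Its FPKM was 13.6, 11.7 and 14.1 at 3M, 17.1, 13.4 and 15.8 at 6M, 16.8, 13.9 and 15.4 at 12M, and 16.5, 15.7 and 14.8 at 18M. This is 17.4 times the mean of 0.856 for the RefSeq mRNAs of Mdm4, with only 1.21% of windows in a coding transcript. No library of any age was at 0 for this member. Its partner on the opposite strand, MSTRG.22244.1, was at 0 in 4 libraries.

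Gm9791, a copy of Carhsp1, a gene for a cold shock domain protein, had a mean FPKM of 20.5, which is 5.23 times that of Carhsp1, and 0% of its 73 known windows were found in a coding transcript. These windows all cross the 1 base that differs from Carhsp1 in the 173 known bases, which are 51.5% of the member. Gm8834, a copy of the glutathione transferase gene Gstm3, had 6.89 FPKM, 7.12 times that of Gstm3. Mdm4-ps, Gm9791 and Gm8834 were chosen from the 11 after their values were seen.

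**Figure D3:**
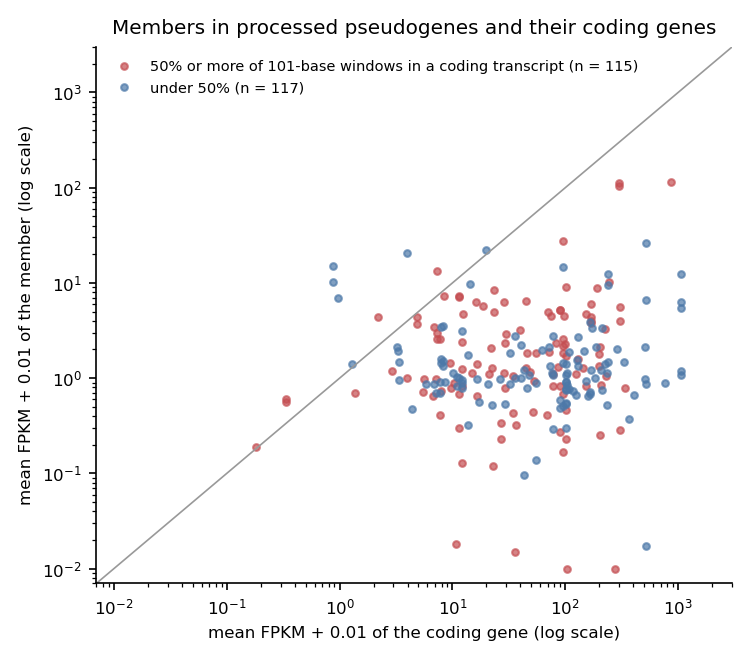
Mean FPKM + 0.01 of 232 members in processed pseudogenes against the coding gene they match, both on log scales, with the line of equal level, in red where 50% or more of the known 101-base windows of the member occur in a coding transcript. The level of a gene is the sum over its RefSeq mRNAs. Most points lie far below the line over a wide range of gene levels, and 11 lie above it.

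Members also shared sequence among themselves. At 90% identity over 50% of the shorter member, 208 members at 190 sites fell into 60 groups. The largest held 15 members like Rps2 at 14 sites on 12 chromosomes, of which MSTRG.6637.1 in Gm4821 was highest at 4.38 FPKM, with 3.70 to 5.45 in the 12 libraries. The next held 12 members on the Y chromosome between 0.427 and 1.47 FPKM, led by MSTRG.22583.1 in Gm21118, 99.3% identical to the coding gene Gm20806. The third held 9 members at 7 sites on 5 chromosomes, led by MSTRG.7106.1 in Gm4942 at 7.72 FPKM, of which 4 were closest to 4930444G20Rik. Reads that fit several of these copies cannot be assigned to 1 of them from their letters.

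The longest members formed a pair on chromosome 12. MSTRG.4640.1 (chr12:98369244-98420084, 50841 nt) and MSTRG.4641.1 (41267 nt) overlap on opposite strands, 9353 bases from Kcnk10, a potassium channel gene. MSTRG.11631.1 on chromosome 2, of 40276 nt, overlaps the lncRNA Gm13814 and had an FPKM of 1.13 to 1.93 in all libraries.

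Open reading frames from ATG to a stop were searched for on both strands where the bases were known. The longest, of 1978 codons, was in MSTRG.243.1, over an exon of the coding gene Gm8251, and this member had 0 reads in all 12 libraries. MSTRG.20125.1, in 4932416K20Rik, held one of 1054 codons and had an FPKM of 1.25 to 2.77. MSTRG.15056.1, in Gm26825, held one of 646 codons in a copy of Hspa8, a constitutive heat shock protein, with 99.4% identity, and had 7.17 to 8.50 FPKM beside 89.9 for Hspa8. Coding potential was not tested.

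One member was the mitochondrial genome itself. MSTRG.21662.1 spanned bases 16 to 16299 of the mitochondrial chromosome, and its estimated reads were 33136, 13070 and 2067 at 3M, 1341, 5605 and 20565 at 6M, 260236, 5612 and 4658 at 12M, and 3678, 10198 and 1529 at 18M. Values differed several-fold between mice of each age, and the ages overlapped. It set the share of all reads on members in 1 library: 12M-1 had 1.43%, and 0.995% without this member, where the other 11 libraries had 0.956% to 1.09% with it.

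The share of reads on members did not follow age. It was 1.02% ± 0.0629 in the 3M mice, 1.06% ± 0.0291 in the 6M mice, 1.19% ± 0.212 in the 12M mice and 1.02% ± 0.0593 in the 18M mice (SD, n = 3). The difference between 3M and 18M was smaller than the spread between mice of either age. As a whole, the 1789 members tested between 3M and 18M had a median fold change of 0.03 on the log2 scale. The median was 0.0034 for all 54472 transcripts tested. A change above 0 was found in 997 members (55.7%), a share that was not taken for all transcripts. Members that overlap on opposite strands were each counted here. With these joined, a choice made after the data were seen, the share was 56.7% of 1691.

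For differences between ages, each transcript was tested with the edgeR quasi-likelihood test and called where the Benjamini-Hochberg adjusted p over all transcripts was at most 0.05 and the fold change between ages was at least 1 on the log2 scale, up or down. Between 3M and 6M, 0 of 1778 members tested were called, beside 0.0515% of all transcripts, and 29 had an unadjusted p of 0.05 or less, 1.63% beside 3.99%. Between 6M and 12M, 0 of 1774 were called, beside 0.0202%, and 35 (1.97%, beside 4.62%) had such a p. Between 12M and 18M, 1 of 1783 was called, beside 0.0201%, and 19 (1.07%, beside 3.48%) had such a p. Between 3M and 18M, 2 of 1789 were called, which is 0.112% beside 0.108%, and 52 (2.91%, beside 5.40%) had such a p. On the slope with age over all 12 libraries, 0 of 1888 were called, beside 0.0103%, and 118 (6.25%, beside 7.15%) had such a p. DESeq2 called 13, 17, 7, 15 and 29 members in the same order. These are 0.692%, 0.908%, 0.372%, 0.811% and 1.55% of members, beside 1.88%, 2.11%, 1.16%, 2.21% and 1.80% of all transcripts. Without adjustment of p it called 45, 51, 35 and 35 in the pairwise comparisons. These are 2.38%, 2.69%, 1.86% and 1.86%, beside 5.22%, 5.52%, 4.21% and 5.27%. The calls of the main edgeR fits numbered 0 to 2 members per comparison, too few to set their shares apart from the background. Other edgeR fits of 3M against 18M varied. Reads summed per locus gave 5 of 1688 members (0.296%), beside 14 of 22589 loci. All 12 libraries in 1 fit gave 4 of 1888 (0.212%), beside 18 of 58289 transcripts. A filter of 1 read in any library gave 0 of 1978, beside 22 of 66290.

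All 3 calls were all-or-none, and none kept an adjusted p of 0.05 or less when any 1 library of its comparison was left out. MSTRG.4641.1 was lower at 18M than at 12M: its estimated reads were 10771, 0 and 0 at 3M, 11643, 10324 and 10478 at 6M, 11128, 10637 and 9884 at 12M, and 0, 0 and 0 at 18M. The 12M and 18M libraries do not overlap, but 2 of the 3M libraries were at 0 as well. Against a floor of 3 reads per library it was at least 3584-fold lower at 18M (adjusted p = 0.0423, edgeR). Its partner MSTRG.4640.1, which covers the whole of it, had 12141, 9848 and 12713 reads at 18M and 1190, 12612 and 12586 at 12M.

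MSTRG.18872.1, in the Rpl5 copy Gm15500 at chr7:114705207-114706220, was lower at 18M than at 3M. Its estimated reads were 483, 479 and 566 at 3M, 446, 473 and 0 at 6M, 569, 463 and 0 at 12M, and 0, 0 and 0 at 18M, at least 182-fold lower against the same floor (adjusted p = 0.0431, edgeR). On the opposite strand of the same site, MSTRG.18871.1 had 483, 481 and 566 reads at 3M and 557, 408 and 717 at 18M, and a change of -0.0024 (log2, edgeR). The site as a whole thus held reads at every age, and Rpl5, a protein of the large ribosomal subunit, is identical to it in all known windows.

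MSTRG.13412.1, in the lncRNA A530020G20Rik at chr3:121532888-121536776, was higher at 18M than at 3M. Its estimated reads were 0, 0 and 0 at 3M, 268, 0 and 366 at 6M, 342, 0 and 412 at 12M, and 323, 356 and 533 at 18M, at least 123-fold higher at 18M (adjusted p = 0.0472, edgeR). The whole of it lies in an exon of a Slc44a3 transcript on the opposite strand, MSTRG.13411.2, with 324, 382 and 0 reads at 3M, 31 in 12M-3 and 0 in the other 6M, 12M and 18M libraries.

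Similar values stood just outside the threshold. MSTRG.8368.1 (chr16:91309556-91311306) was at 0 in all 3M and 6M libraries and had 134, 120 and 179 reads at 18M (adjusted p = 0.0544, edgeR), while its partner MSTRG.8367.1 had 137, 183 and 128 reads at 3M and the same 134, 120 and 179 at 18M. When overlapping members were joined before the test, which was chosen after the data were seen, 1 member was called between 3M and 18M and 0 in the other comparisons.

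**Figure D4:**
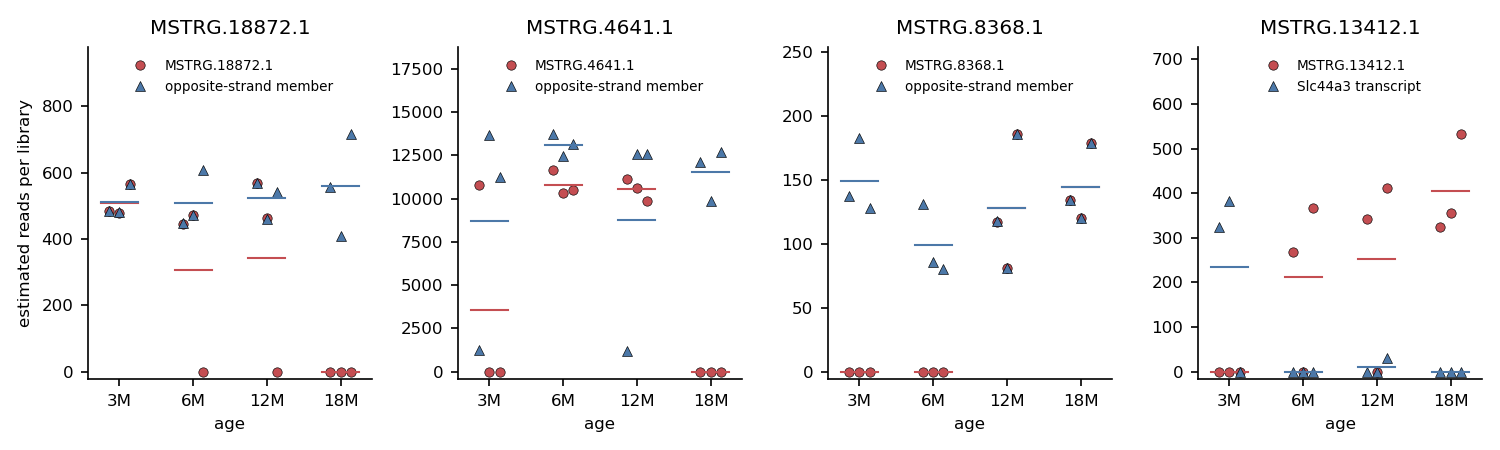
Estimated reads in each library by age for the members MSTRG.18872.1, MSTRG.4641.1, MSTRG.8368.1 and MSTRG.13412.1 (red circles) and for the transcript that overlaps each on the opposite strand (blue triangles), where horizontal lines mark the mean of 3 mice. Where a red member is at 0 at a whole age, as MSTRG.18872.1 at 18M, the overlapping member on chromosomes 7, 12 and 16 still holds reads.

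The 2 members with the smallest p among those without an age at 0 were both on the Y chromosome, overlapped no other transcript and had values graded by age. MSTRG.22536.1 (chrY:40683595-40689086), with the small RNA gene Gm27466 inside it, had an FPKM of 1.69, 1.61 and 1.65 at 3M, 2.57, 2.15 and 2.43 at 6M, 3.98, 3.40 and 3.77 at 12M, and 4.52, 4.07 and 3.56 at 18M. No 6M library overlapped those of 3M or 12M, while the 12M and 18M libraries overlapped. The change from 3M to 18M was 1.29 ± 0.13 (log2, SE), an estimated 2.44-fold difference, with an adjusted p of 0.0841 in edgeR, and the slope had an adjusted p of 0.0574. It was not called in either test.

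MSTRG.22569.1 (chrY:63206143-63208544), with no GENCODE gene, had an FPKM of 0.286, 0.264 and 0.294 at 3M, 0.410, 0.431 and 0.394 at 6M, 0.941, 0.902 and 0.899 at 12M, and 1.23, 1.06 and 0.799 at 18M. It had the same order of ages, with overlap between 12M and 18M alone. The change from 3M to 18M was 1.85 ± 0.23 (log2, SE, adjusted p = 0.154, edgeR), and the slope had an adjusted p of 0.0511. Of 9 alternative fits between 3M and 18M, 3 called both members. These were DESeq2 (adjusted p = 1.42e-25 and 1.80e-10), reads summed per locus and all 12 libraries in the fit. In the alternatives the adjusted p reached 0.958 for both (edgeR). When any 1 library was left out, their fold changes kept within 1.21 to 1.37 and 1.70 to 2.0 (log2). In these 6 fits neither was called, with an adjusted p of 0.144 to 0.226 and 0.166 to 0.360 (edgeR).

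Of the 22 members on the Y chromosome 20 were tested between 3M and 18M. A change above 0 was found in 15, beside 997 of all 1789 members tested. An unadjusted p of 0.05 or less (edgeR) was found in 3 (15%), all higher at 18M. For all members this share was 2.91%, and for all transcripts 5.40%. MSTRG.22536.1 and MSTRG.22569.1, named above for their small p, are among these 3, so the share is no separate support. The median change was 0.21 on the log2 scale, beside 0.03 for all members tested. Shared sequence joins 12 members on the Y chromosome, so the Y members are not independent. The highest Y members, MSTRG.22623.1 and MSTRG.22624.1 near chrY:90740907, overlap on opposite strands, and their changes were -3.21 ± 2.14 and -0.18 ± 1.95 (log2, SE). MSTRG.22623.1 ranged from 6.79 to 9.09 FPKM at 3M and from 0 to 2.51 at 18M, while its partner was at 0 in 5 libraries and had up to 8.48 at 18M.

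**Figure D5:**
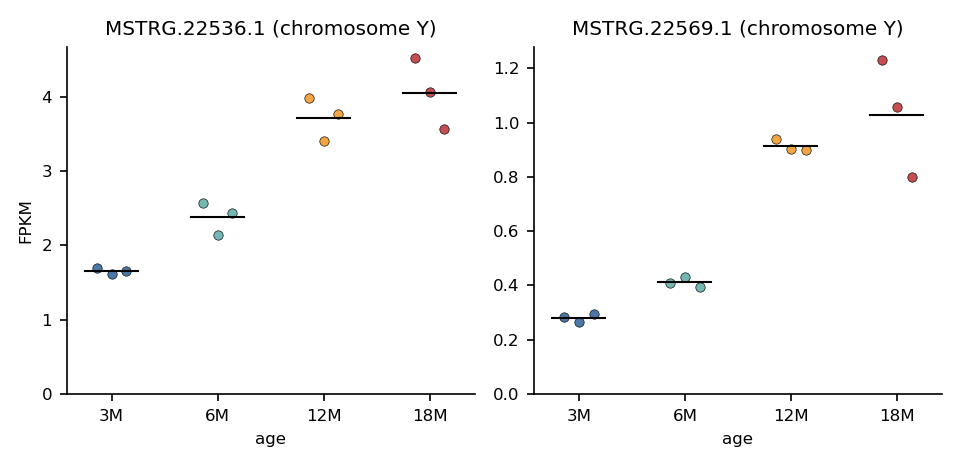
FPKM of MSTRG.22536.1 and MSTRG.22569.1 in each mouse by age, with horizontal lines at the mean of 3 mice. In both, the 3 mice of 6M sit above those of 3M and below those of 12M, and 12M and 18M overlap.

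The members nearest to a call in the other direction were small in level. MSTRG.5787.1 lies in Gm20763, where 271 of the 300 printed bases aligned to the kinesin gene Kifc1 with 19 differences. Its FPKM was 0.911, 1.35 and 1.21 at 3M, 0.635, 0.592 and 0.734 at 6M, 0.602, 0.386 and 0.573 at 12M, and 0.517, 0.383 and 0.603 at 18M. All 3M mice were above all others, and the change to 18M was -1.21 ± 0.29 (log2, SE, adjusted p = 0.728, edgeR), which DESeq2 called. MSTRG.19896.1 on chromosome 8 and MSTRG.9700.1 on chromosome 18 had changes of -0.99 ± 0.29 and -0.67 ± 0.19 (log2, SE, adjusted p = 0.873 and 0.858, edgeR).

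Continuous change was counted as a mean FPKM that rose, or fell, at every step from 3M to 18M, among the 1563 members whose mean FPKM reached 1 at some age. The mean increased at every step in 128 members (8.19%), beside 5.63% of all transcripts at that level and 7.92% of the multi-exon intergenic transcripts, and decreased in 61 (3.90%), beside 4.61% of all transcripts and 2.73% of the multi-exon ones. The median change from 3M to 18M was 0.38 in the former and -0.32 in the latter, as log2(mean FPKM + 0.001), and 181 of the 189 had no single step of 1.2 or more. All 18M mice were above all 3M mice in 146 members (9.34%), beside 7.70% of all transcripts and 11.5% of the multi-exon ones. They were below in 84 (5.37%), beside 6.45% and 3.68% in the same order. Of the 128 members 56 were also free of overlap between 3M and 18M, beside 873 of 2307 for all transcripts. Of the 61 members 24 were, beside 741 of 1890.

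Among those that reached an FPKM of 1 in all mice of some age, the largest differences upward were in MSTRG.13412.1, MSTRG.5242.1 and MSTRG.18885.2. MSTRG.5242.1 (chr13:50810803-50815057) had an FPKM of 0.000833, 0.252 and 0.973 at 3M and of 8.80, 8.02 and 10.5 at 18M (log2 change 4.46 ± 1.61, SE, adjusted p = 0.911, edgeR). It shares most of its bases with the intergenic transcript MSTRG.5241.1, which had 5910 to 10518 reads at 3M and 9643 to 13973 at 18M, and with 7 further transcripts of its own locus on the same strand. The 8 transcripts of this locus summed to 535, 5032 and 2754 reads at 3M and to 3430, 3148 and 3453 at 18M, so that the sums of these ages overlapped. MSTRG.18885.2, in a copy of the elongation factor gene Eef1g, was at 0 in 2 of the 3M mice and 1 of the 6M mice. At the same site on the opposite strand, MSTRG.18884.1 had 850, 695 and 953 reads at 3M and 0, 222 and 1276 at 18M. The largest differences downward were in MSTRG.18872.1, MSTRG.10511.1 and MSTRG.6191.1, each of which was at or near 0 in 2 of the 18M mice or in all 3. MSTRG.10511.1 had 259, 1 and 0 reads at 18M, where its opposite-strand partner MSTRG.10510.1 had 259, 212 and 280.

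Cell type markers were read in the same libraries. All 8 germ cell markers were detected, and their summed FPKM was 23197 to 25925 at 3M and 23682 to 28759 at 18M. The 7 Leydig cell markers summed to 1007 to 1164 at 3M and 699 to 967 at 18M, and the 6 Sertoli cell markers to 43.0 to 46.9 and 43.9 to 46.7. The 6 epididymis markers summed to at most 0.609 in every library, with Adam7 at 0 in all of them. The 6 macrophage markers summed to 15.2 to 16.7 at 3M and 13.1 to 15.8 at 18M, and the 3 hemoglobin genes in the table to 21.0 to 35.2 and 15.1 to 51.6. Their part in the members' values was not tested.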

How the data were processed

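Testis RNA of 12 mice was depleted of ribosomal RNA, made into libraries that do not keep the strand and sequenced from both ends. The authors used HISAT2 for alignment to mm10, and StringTie 1.3.3b for assembly, merging and quantification. The deposited counts are estimated counts, which the authors derived from each transcript's coverage, its length and the read length, and rounded up; they were used as deposited. The deposited FPKM values take account of length and of sequencing depth, and of no other difference between libraries. Reads that match several places can be given to any of them, which bears on copies of genes.

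Members were taken by class code, length and exon number. The members and lists were chosen with earlier results of these data known. For tests, edgeR 4.0.16 (R 4.3.3) was applied to the estimated counts, with TMM factors, filterByExpr, its quasi-likelihood test and Benjamini-Hochberg adjustment over all transcripts, between 2 ages with their 6 libraries only, or on age in months with all 12. The SE given with a log2 change is the size of that change divided by the square root of its F statistic. It is no spread between mice. DESeq2 1.42.0 was the alternative. The tests were tried on simulated counts. Mice are the replicates, 1 library each.

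Overlaps with GENCODE vM21 and distances used bedtools 2.31.1. No whole genome was used here: bases came from GENCODE transcripts and from RefSeq promoter windows (250 bases before to 50 after a start), and were matched with blastn 2.17.0. Continuous change used a pseudocount of 0.001. Other steps were run in Python 3.11.15 (pandas 2.3.3, numpy 2.4.6), and plots were drawn with matplotlib 3.10.9.

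Named are the 6 highest members, those called (at most 8 per test), the 4 with the smallest p in each direction between 3M and 18M at a mean of 0.5 CPM or more, the 3 longest, the 3 with the longest open reading frames, the 3 highest on the Y chromosome, the 3 with the largest continuous change in each direction, and the highest of the 3 largest shared-sequence groups and of the mitochondrial and coding matches.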

Additional observations from a re-analysis of the deposited data

How the results depend on the processing

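The counts of called members depended on the tool and the unit. Where the main counts were 0, 0 and 1 for the 3 steps between ages, 2 between 3M and 18M and 0 on age, DESeq2 called 13, 17, 7, 15 and 29 members; with unadjusted p the pairwise counts were 45, 51, 35 and 35. Of the 15 DESeq2 calls between 3M and 18M, 8 had an age with all 3 libraries at 0. Reads summed per locus gave 4, 1, 1, 5 and 2, beside 13, 6, 5, 14 and 50 of 22558 to 23126 loci. All 12 libraries in 1 fit gave 0, 1, 1 and 4 in the pairwise comparisons, beside 3, 12, 6 and 18 of 58289 transcripts. None of the 3 members called in the main test was called in the fit of all 12 libraries. There MSTRG.18872.1 and MSTRG.13412.1 had an adjusted p of 0.808 (edgeR), and the call between 12M and 18M was MSTRG.21280.1 in place of MSTRG.4641.1. A filter of 1 read in any library gave 0 for 12M to 18M and for 3M to 18M, beside 6 and 22 of all transcripts. Robust dispersion gave 1 for 3M to 18M, beside 41. Overlapping members joined, an alternative chosen after the data were seen, gave 0 and 1 for these 2 comparisons, beside 10 and 58. With the mouse number as a replicate block, 0 members were called in any comparison. Deviations of same-numbered mice from their age means had correlations of -0.0212 to 0.0205 over transcripts. These values cannot tell whether such mice shared a litter or a batch, and the labels state no pairing. With 1 library left out, the counts ranged over 0 to 2, 0 to 1, 0 to 0, 0 to 1 and 0 to 1. For MSTRG.18872.1 the adjusted p was then 0.0633 to 0.174, and for MSTRG.13412.1 0.0746 to 0.226; MSTRG.22569.1 was called on age without 18M replicate 3 (adjusted p = 0.0308). The cause was not tested.

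The difference in the share held by members, 18M minus 3M, was 0.00348 percentage points of reads and 0.108 of summed FPKM. The count with continuous change, 189, was 65 of 488 members at an FPKM of 2 or more. The members with a match to a coding transcript were 126 at 90% identity over 90% of the member, and those near a gene 281 within 1 kb, 790 within 10 kb and 1466 within 5 kb of a GENCODE gene. All other alternatives of these results kept within 1.5 times the main count or within 1 SD. Counts of a few reads limit the lowest members, and 264 members were left untested between 3M and 18M by the filter on low counts.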
